A study of Homo sapiens with 18 samples.

Results

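The 6 SVA subfamilies, SVA_A to SVA_F, were examined as RNA counts at 3530 annotated copies, out of 2472685 repeat copies of all kinds listed in the series. The members are the rows whose repeat name begins with SVA_. This rule uses no measured value, but earlier results of these data were known when it was chosen. The counts stand in 2 tables, 1 for each drug: 3525 of the 2404193 copies of the 5-FU table and 3504 of the 1996647 copies of the Nutlin table are SVA, and 3499 SVA copies are in both. The RNA is total RNA of IMR90, an established human cell line of lung fibroblasts labelled wildtype, in 18 samples that form 9 groups of 2. Cells were given Nutlin, which blocks the binding of MDM2 to p53, at 5 µM for 6 h, or 5-fluorouracil (5-FU), an antimetabolite that damages DNA and disturbs RNA synthesis, at 375 µM for 6, 12 or 24 h. Each drug and time has its own controls with a matched volume of the solvent DMSO, and the untreated cells received fresh medium 12 h before extraction. The title of the series places the question in repeat RNA and the tumour suppressor p53. The samples are not stated to be separate cultures, so p-values measure only the spread between these libraries.

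SVA elements are composite retrotransposons found in apes and humans. A complete element carries, from its 5′ end, a run of CCCTCT hexamers, an Alu-like part, a stretch of variable tandem repeats (VNTR), a SINE-R part derived from the end of an HERV-K provirus, and a poly(A) tail. They code for no protein and are copied by the enzymes of LINE-1 acting in trans. The letters follow relative age, with SVA_A among the oldest and SVA_E and SVA_F specific to humans, and the group is still active in the human germ line. Because SVA copies often lie within genes and resemble each other closely, reads from them may come from a host transcript and may match several copies.

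The libraries of the 5-FU table held 2958 to 11455 SVA counts each, and 5514 to 7481 were held by those of the Nutlin table. Outside rRNA, tRNA and small structural RNA, SVA copies took 0.183% to 0.322% of the counts with 5-FU and its controls and 0.271% to 0.314% with Nutlin and its controls. Because both untreated columns beside Nutlin hold the same values, they were used as 1 sample. Untreated replicate 1 stands in both tables, and of the 593 SVA copies with a count in either, 47% had the same count in both, against 91.1% of all copies with a count. No SVA level was therefore set across the tables. Levels are CPM, counts divided by the scaled library size, and log2 ratios are the fitted log2 fold changes of drug over control. Levels are therefore relative to the other repeats, and fewer cells and less RNA per cell cannot be told apart in such bulk samples. No gene is listed, so the labelled cell type was not checked against marker genes. The library kit keeps strand, but the rows give none, so sense and antisense RNA cannot be told apart. Positions are as the tables give them, on hg19 per the submitters' processing notes. Without an hg19 gene annotation, the copies are not assigned to exons, introns or UTRs.

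The subfamilies differed in number and in completeness. In the 5-FU table SVA_D had 1328 copies and SVA_F 980, followed by SVA_B with 459, SVA_C with 276, SVA_A with 252 and SVA_E with 230. Copies of 1000 bases or more, called long here, made up 1990 of the 3525. They were 218 of 276 in SVA_C, 339 of 459 in SVA_B and 962 of 1328 in SVA_D, but 239 of 980 in SVA_F. Each row name also carries 2 numbers up to 1387 that have the form of a start and an end in the repeat's consensus, although the sources used here do not say what they are. By these numbers 1330 copies (37.7%) reached within 50 bases of both ends of their name's span, from 6.63% of the SVA_F copies to 68.8% of the SVA_C copies. SVA_F thus consists mostly of partial rows: over both tables, the first number lay between 400 and 450 in 460 of its 983 rows. Rows are also not always separate insertions, since 1057 rows (29.9%) lay within 50 bases of another SVA row.

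Per kilobase of annotated sequence, SVA_C gave the most RNA. Its level in the 5-FU table was 0.858 ± 0.181 CPM per kb (SD over the 14 libraries of all groups), against 0.538 ± 0.113 for SVA_F, 0.4997 ± 0.0832 for SVA_D, 0.406 ± 0.114 for SVA_A, 0.369 ± 0.0457 for SVA_B and 0.345 ± 0.1001 for SVA_E. The SD here includes the differences between conditions, and neighbours in this order below SVA_C lay within it. In the Nutlin table the order was the same, from 0.248 ± 0.0222 CPM per kb for SVA_C, through 0.190 for SVA_F, 0.186 for SVA_D, 0.141 for SVA_A and 0.121 for SVA_B, to 0.0949 ± 0.0230 for SVA_E (SD over 5 libraries). Neither ranking was tested.

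Few copies carried most of the counts. No library had a count at 52.8% of the SVA copies of the 5-FU table and at 66.6% of those of the Nutlin table, while the 10 most abundant SVA copies held 32.2% and 36.5% of the SVA counts. Within SVA_C, 2 copies held 63.13% of the counts in the 5-FU table. The 10 most abundant copies of a name held from 48.5% of the counts in SVA_D to 77.4% in SVA_C. A value for a subfamily is therefore largely a value for a handful of its copies. Long copies held 82.3% of the SVA counts in the 5-FU table, and copies spanning both ends 66.3%.

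**Figure D1:**
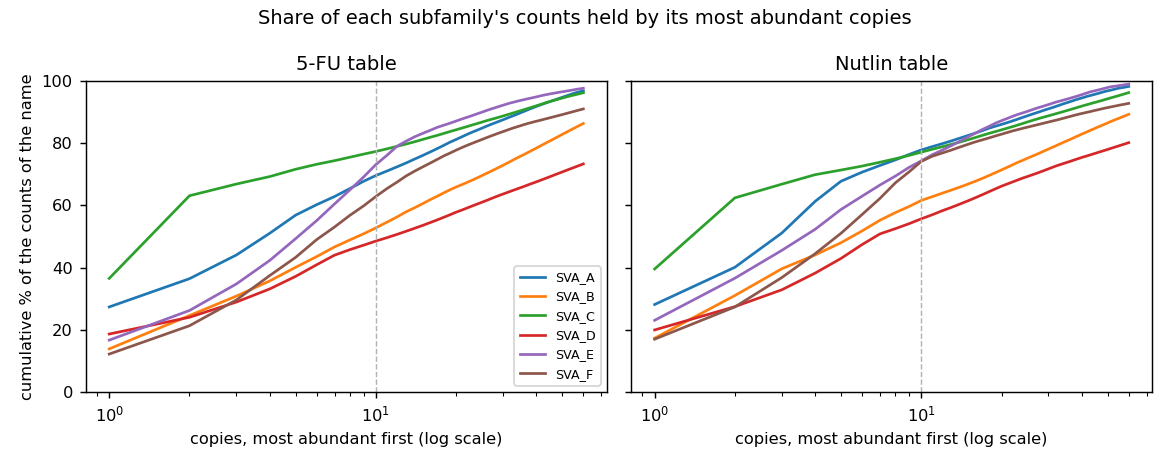
Cumulative share of each subfamily's counts (vertical axis, %) against the number of its most abundant copies (horizontal axis, log scale), summed over the libraries of each table. The dashed line marks 10 copies, where SVA_C stands at 77.36% and SVA_D at 48.55% in the 5-FU table.

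At 12 h, 5-FU was compared with DMSO for each subfamily as the sum over its copies. SVA_A, SVA_B, SVA_C, SVA_D and SVA_F were higher with 5-FU by edgeR's quasi-likelihood test, 5 of 6 names against 35.8% of all 1075 repeat names called in either direction and 16.5% called higher. SVA_A had 80.8 and 74.2 CPM in the DMSO libraries and 179 and 175 CPM with 5-FU, a log2 ratio of 1.19 (SE 0.13, adjusted p 2.81e-05). SVA_C went from 205 and 208 CPM to 435 and 391 CPM (log2 ratio 1.00 with SE 0.10, adjusted p 1.86e-05). Both drug libraries were above both control libraries in each of the 6 names.

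SVA_F, the human-specific subfamily with the most copies, had 295 and 274 CPM with DMSO and 557 and 548 CPM with 5-FU at 12 h (log2 ratio 0.96 with SE 0.09, adjusted p 1.48e-05). SVA_D, which supplies the most SVA RNA in total, had 653 and 631 CPM with DMSO and 1146 and 1114 CPM with 5-FU (log2 ratio 0.82 with SE 0.07, adjusted p 8.27e-06). The change of SVA_B was smaller, from 163 and 166 CPM to 204 and 205 CPM (log2 ratio 0.31 with SE 0.10, adjusted p 0.0268). Its call was lost when any of the 4 libraries was left out, with log2 ratios of 0.30 to 0.32 and adjusted p of 0.0838 to 0.129, and its fold change turned to -0.01 when the library size alone set the scale. SVA_E had 55.4 and 53.7 CPM with DMSO and 57.1 and 78.0 CPM with 5-FU and did not pass the test (log2 ratio 0.31 with SE 0.23, adjusted p 0.322). The median log2 ratio was 0.89 over the 6 SVA names and -0.08 over all names.

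The scale changed which of all names were called, while the 4 SVA names with the large changes kept their calls. Their log2 ratios still moved with it. For long copies the library size alone gave 1.06 in SVA_A, 0.66 in SVA_C, 0.40 in SVA_D and 0.70 in SVA_F. On the main scale these were 1.38, 0.98, 0.72 and 1.03. Over all names 177 were higher and 208 lower at 12 h. When the library size alone set the scale, 436 names were called lower and 61 higher (median over all names -0.40). With TMM factors over all copies 307 were higher and 57 lower (median 0.17). SVA_A, SVA_C, SVA_D and SVA_F were called higher under every scaling tried, and also without any 1 of the 4 libraries. They were also called higher without the single most abundant copy of each name, with log2 ratios of 0.72, 0.74, 0.81 and 0.99. Without the 10 most abundant copies of each name no SVA name passed (0 at adjusted p under 0.05). SVA_A was then at -0.19 (adjusted p 0.599), SVA_C at 0.59 (0.0985), SVA_D at 0.26 (0.204) and SVA_F at 0.43 (0.165).

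**Figure D2:**
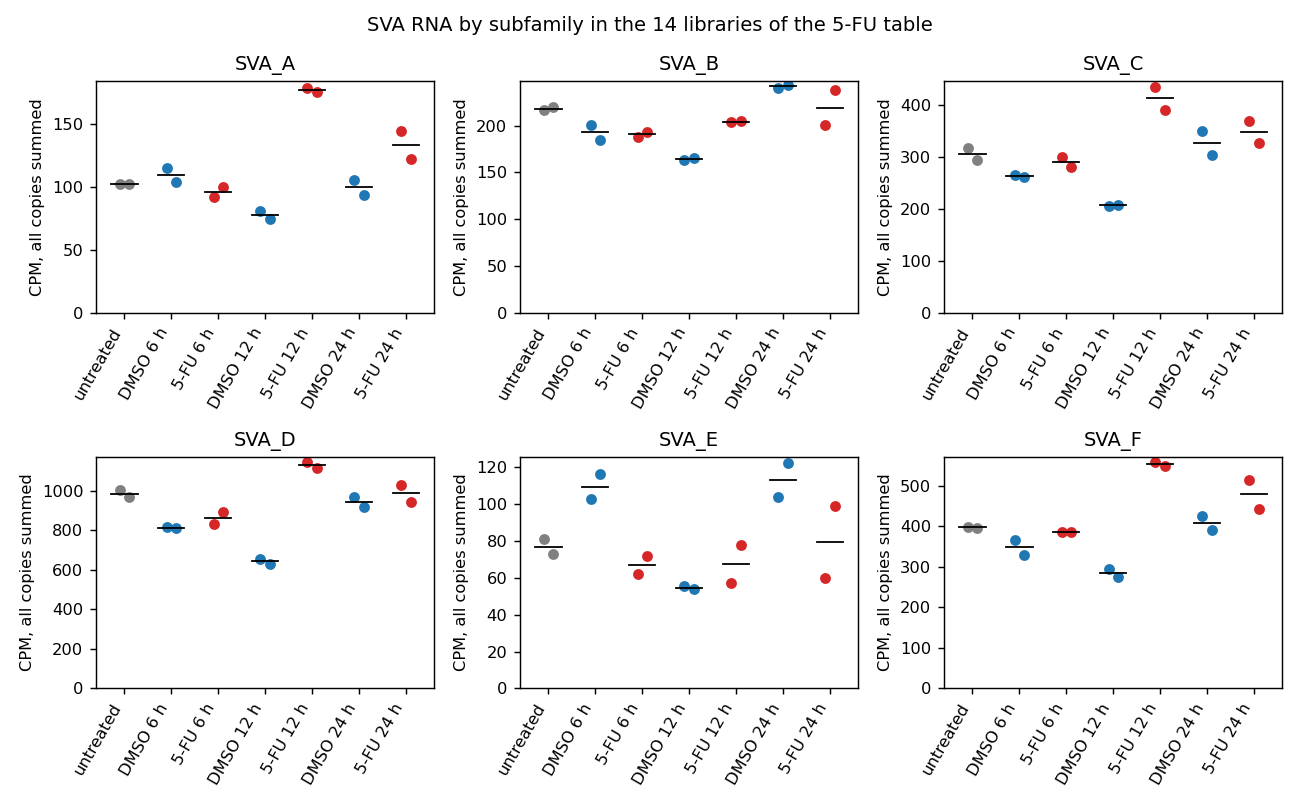
Summed CPM of each SVA subfamily (vertical axis, from 0) in the 14 libraries of the 5-FU table; points are libraries, bars are group means, and grey, blue and red are untreated, DMSO and 5-FU. SVA_A, SVA_C, SVA_D and SVA_F show low DMSO 12 h and high 5-FU 12 h libraries, with SVA_D at 653 and 631 CPM against 1146 and 1114 CPM.

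The controls also differed between times. In a comparison chosen after the levels had been seen, DMSO 12 h was set against DMSO 6 h and DMSO 24 h together, and all 6 SVA names were lower at 12 h, against 12.9% of all names called and 6.33% called lower. The log2 differences were -0.43 for SVA_A, -0.39 for SVA_B, -0.51 for SVA_C, -0.45 for SVA_D, -1.03 for SVA_E and -0.41 for SVA_F (adjusted p 0.000817 to 0.0226). Over all names 71 were higher and 68 lower. With TMM factors over all copies 17 were higher and 399 lower, the median of all names being -0.30, and with the library size alone all 6 SVA names were still lower but 4 were called, the others being SVA_A at -0.38 (adjusted p 0.109) and SVA_B at -0.34 (adjusted p 0.15). The sum of all SVA copies was 1429.5 ± 32.5 CPM in DMSO 12 h, 1835.5 ± 40.9 CPM in DMSO 6 h and 2133 ± 86.4 CPM in DMSO 24 h (SD, n = 2). The DMSO 12 h libraries were also the shallowest, at 2412334 and 2540089 counts. The part of depth in the low SVA level was not tested.

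Against other controls 4 names were still higher at 12 h. With DMSO 6 h and DMSO 24 h as controls, 5-FU 12 h was higher in SVA_A (log2 ratio 0.76, adjusted p 0.000175), SVA_C (0.49, adjusted p 0.000776), SVA_D (0.37, adjusted p 0.000657) and SVA_F (0.55, adjusted p 0.000241). SVA_B was then at -0.08 (adjusted p 0.468), and SVA_E was lower at -0.72 (adjusted p 0.00994). With these controls 42% of all names were called, 16.3% higher and 25.8% lower. Within the 5-FU libraries alone, 12 h stood above 6 h and 24 h in the same 4 names, by 0.65 for SVA_A, 0.38 for SVA_C, 0.29 for SVA_D and 0.36 for SVA_F (adjusted p 0.00503 to 0.0147), against 17.2% of all names called and 6.7% called higher. With the library size alone as the scale 1 SVA name was called. Over all names 72 were higher and 113 lower, against 49 and 298 with TMM factors over all copies and 25 and 213 with the library size alone.

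At 6 h no SVA name passed the test of 5-FU against DMSO, and none of the 1075 names did (0%). At an unadjusted p under 0.05 there was 1 SVA name, SVA_E, and DESeq2 called 0. SVA_E had 103 and 116 CPM with DMSO and 62.0 and 71.9 CPM with 5-FU (log2 ratio -0.71 with SE 0.21, adjusted p 0.345). The other 5 names had log2 ratios from -0.19 for SVA_A to 0.15 for SVA_F.

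At 24 h SVA_A was the 1 SVA name called by edgeR, against 8.19% of all names. It had 105 and 93.7 CPM with DMSO and 144 and 122 CPM with 5-FU (log2 ratio 0.42 with SE 0.12, adjusted p 0.0441). The call was lost without 5-FU replicate 1 (log2 ratio 0.29, adjusted p 0.117), without DMSO replicate 1 (0.50, adjusted p 0.0955) and without DMSO replicate 2 (0.33, adjusted p 0.271). DESeq2 did not call SVA_A (adjusted p 0.152) and called SVA_E lower (log2 ratio -0.58, adjusted p 0.0334). SVA_F had 426 and 391 CPM with DMSO and 515 and 443 CPM with 5-FU (log2 ratio 0.23 with SE 0.09, adjusted p 0.143). SVA_B, SVA_C, SVA_D and SVA_E had log2 ratios of -0.14, 0.09, 0.06 and -0.50, and the drug and control libraries of SVA_C and SVA_D overlapped. Without 5-FU replicate 2, SVA_E was called lower at -0.92 (adjusted p 0.00168) and SVA_F higher at 0.33 (adjusted p 0.00807). Over all names 71 were higher and 17 lower, against 59 and 27 with TMM factors without structural RNA and 29 and 18 with the library size alone.

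The size of the 5-FU effect differed between times in 4 names. The effect at 12 h exceeded that at 6 h by 1.38 on the log2 scale in SVA_A (SE 0.17, adjusted p 0.000681), 0.86 in SVA_C (SE 0.14, adjusted p 0.00282), 0.73 in SVA_D (SE 0.10, adjusted p 0.00104) and 0.81 in SVA_F (SE 0.13, adjusted p 0.00245), where 6.88% of all names were called. From 12 h to 24 h the effect fell by 0.78 in SVA_A, 0.91 in SVA_C, 0.75 in SVA_D and 0.73 in SVA_F (adjusted p 0.00333 to 0.0233), where 7.44% were called. These 2 tests share the 12 h libraries, DMSO and 5-FU, and each difference includes the change of the DMSO controls. Over all names 51 exceeded and 23 fell short from 6 h to 12 h, and 39 and 41 from 12 h to 24 h. With TMM factors over all copies these were 98 and 10, then 9 and 97, and with the library size alone 21 and 37, then 16 and 13, where 1 SVA name was called in each test. Between 6 h and 24 h no SVA name was called (edgeR 0, DESeq2 0, and 1 at an unadjusted p under 0.05), against 1.12% of all names.

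Nutlin at 6 h was compared with DMSO within its own table. No SVA name passed (edgeR 0, DESeq2 0), against 11.2% of all 1029 names, and 2 had an unadjusted p under 0.05. These were SVA_A, with 40.3 and 31.9 CPM with DMSO and 45.6 and 46.6 CPM with Nutlin (log2 ratio 0.35 with SE 0.13, adjusted p 0.0762), and SVA_E, with 30.4 and 20.6 CPM with DMSO and 16.1 and 20.1 CPM with Nutlin (log2 ratio -0.51 with SE 0.17, adjusted p 0.0571). SVA_D was at 340 and 317 CPM with DMSO and 357 and 353 CPM with Nutlin, and SVA_B, SVA_C, SVA_D and SVA_F had log2 ratios between -0.13 and 0.11. The scale decided which SVA names were called: with the library size alone 2 names were lower, and with RLE size factors 1 was higher and 1 lower. Over all names 74 were higher and 41 lower, with TMM factors over all copies 99 and 32, and with the library size alone 43 and 189, the median being -0.11.

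**Figure D3:**
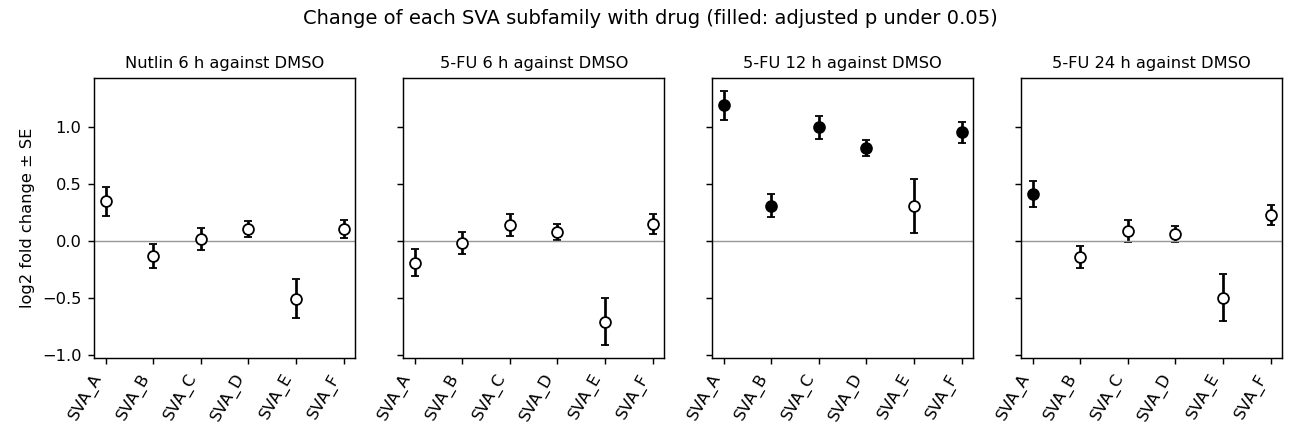
Log2 fold change of each subfamily with drug against its own DMSO controls (vertical axis; bars are SE of the fit) in the 4 drug comparisons; filled points have an adjusted p under 0.05. The 5 filled points at 12 h lie between 0.31 and 1.19, and SVA_A at 24 h, at 0.42, is the other filled point.

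The 3 DMSO groups of the 5-FU table together were also set against the untreated cells. SVA_D was lower with DMSO (log2 ratio -0.32 with SE 0.06, adjusted p 0.00818), 1 of 6 names against 11.7% of all names. DESeq2 and the fit with TMM factors over all copies called 4 SVA names lower. Over all names 92 were higher and 34 lower, against 18 and 109 with TMM factors over all copies and 10 and 59 with the library size alone. In the untreated libraries SVA_D had 1004 and 966 CPM, close to the 968 and 917 CPM of DMSO 24 h and above the 653 and 631 CPM of DMSO 12 h.

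Length classes were tested for each name at a boundary of 1000 bases. At 12 h of 5-FU, 7 of the 12 classes were higher, against 33.2% of 1405 name and length classes called in either direction and 13.8% called higher. Among long copies these were SVA_A (log2 ratio 1.38 with SE 0.15, adjusted p 3.02e-05), SVA_C (0.98, adjusted p 2.29e-05), SVA_D (0.72, adjusted p 3.02e-05) and SVA_F (1.03, adjusted p 1.28e-05). Among short copies they were SVA_C (1.28 with SE 0.42, adjusted p 0.0308), SVA_D (1.30 with SE 0.25, adjusted p 0.00189) and SVA_F (0.87, adjusted p 0.00107). The call of short SVA_C copies was lost when any of the 4 libraries was left out (log2 ratio 0.99 to 1.65, adjusted p 0.0658 to 0.185), with DMSO 6 h and 24 h as the control (0.62, adjusted p 0.13) and with the library size alone (0.96, adjusted p 0.064). That of short SVA_D copies was lost at a boundary of 500 bases (0.56, adjusted p 0.616).

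SVA_A had the widest gap between its classes at 12 h. Its long copies had 60.6 and 64.7 CPM with DMSO at 12 h and 164 and 161 CPM with 5-FU, while its short copies had 20.2 and 9.5 CPM with DMSO and 14.7 and 14.1 CPM with 5-FU (log2 ratio -0.05 with SE 0.35, adjusted p 0.924). In SVA_D the short copies went from 92.0 and 90.3 CPM to 228 and 221 CPM. The difference between long and short copies of a name was not tested. At 24 h long SVA_F copies were the 1 class called, with 260 and 254 CPM with DMSO and 338 and 303 CPM with 5-FU (log2 ratio 0.32 with SE 0.09, adjusted p 0.0466; 6.98% of all classes). This call was lost without either DMSO library or 5-FU replicate 1 (adjusted p 0.0934 to 0.243) and under 8 of 12 other settings (adjusted p up to 0.635). At 6 h no class passed in 5-FU (0 by edgeR, 4 at an unadjusted p under 0.05; 0% of all classes). With Nutlin long SVA_A copies were higher, from 34.7 and 27.3 CPM to 41.4 and 42.0 CPM (log2 ratio 0.43 with SE 0.13, adjusted p 0.0171; 12.5% of all classes), a call lost without DMSO replicate 2 (log2 ratio 0.27, adjusted p 0.3), without either Nutlin library (adjusted p 0.235 and 0.25) and under 5 of 12 other settings.

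**Figure D4:**
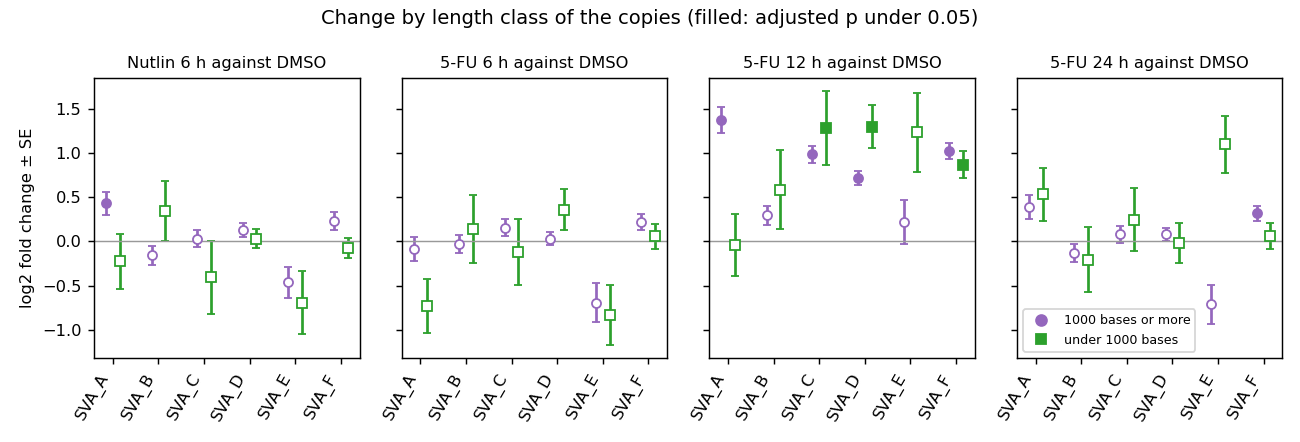
Log2 fold change of long copies (circles) and short copies (squares) of each subfamily with drug against DMSO (vertical axis; bars are SE of the fit); filled symbols have an adjusted p under 0.05. At 12 h long SVA_A copies stand at 1.38 and short ones at -0.05, while in SVA_D the short copies stand at 1.30 and the long ones at 0.72.

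Single copies were tested where their counts allowed. The filter on low counts left 261 of 3525 SVA copies in the 5-FU table, 226 of them long, and 78 of 3504 in the Nutlin table, 68 of them long. The tested copies held 83.4% and 72.8% of the SVA counts. In the 5-FU table they were 128 SVA_D, 45 SVA_F, 31 SVA_B, 26 SVA_C, 16 SVA_E and 15 SVA_A copies. A copy can pass this filter through the group in which it is high, so the counts of called copies that follow describe the tested copies only. For some of the named copies the summed level of the other repeats within 10000 bases on either side is given, as a measure of RNA from the surroundings. How often these repeats moved the same way was counted around called copies only, so no share for other copies stands beside it.

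The most abundant copy was an SVA_D on chromosome 17, 28849853 to 28851242, with 8.36% of all SVA counts in the 5-FU table. It had 162 and 161 CPM with DMSO and 186 and 208 CPM with 5-FU at 6 h, 131 and 130 CPM and 239 and 232 CPM at 12 h, and 153 and 144 CPM and 200 and 111 CPM at 24 h. The libraries separated at 6 h and 12 h and overlapped at 24 h, and 12 h passed the test (log2 ratio 0.85 with SE 0.23, adjusted p 0.0227). The other repeats nearby were at 25.8 CPM with DMSO and 16.8 CPM with 5-FU at 12 h. The call at 12 h was lost when any of the 4 libraries was left out (log2 ratio 0.83 to 0.87, adjusted p 0.0939 to 0.129) and with the library size alone (0.53, adjusted p 0.0744).

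The copies that dominate SVA_C lie on chromosome 7, 100735044 to 100736635, and on chromosome 2, 202030311 to 202031707. The copy on chromosome 7 had 61.0 and 72.8 CPM with DMSO and 191 and 167 CPM with 5-FU at 12 h (log2 ratio 1.42 with SE 0.22, adjusted p 0.000258), and kept its call without any 1 library. Its surroundings moved the same way, from 92.6 to 160 CPM. The copy on chromosome 2 had 59.6 and 64.7 CPM with DMSO and 99.5 and 103 CPM with 5-FU (log2 ratio 0.70 with SE 0.21, adjusted p 0.0408), and lost its call when any of the 4 libraries was left out (adjusted p 0.128 to 0.214) and against DMSO 6 h and 24 h (0.29, adjusted p 0.27), while its surroundings were at 222 and 235 CPM.

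Among the other abundant copies, a short SVA_D on chromosome 2, 170361514 to 170362293, had 26.3 and 30.4 CPM with DMSO and 110 and 103 CPM with 5-FU at 12 h (log2 ratio 1.90 with SE 0.28, adjusted p 0.000191). Little other repeat RNA was found near it, 3.08 CPM with DMSO and 1.82 CPM with 5-FU. A short SVA_F on chromosome 15, 89743510 to 89743733, had 40.4 and 38.5 CPM with DMSO and 67.1 and 65.0 CPM with 5-FU and missed the threshold (log2 ratio 0.74 with SE 0.24, adjusted p 0.0524). A full-span SVA_D on chromosome 7, 47998380 to 47999985, had 32.9 and 15.7 CPM with DMSO and 67.1 and 66.4 CPM with 5-FU (log2 ratio 1.46 with SE 0.29, adjusted p 0.00324; 1.02 and 0.0833 without DMSO replicate 2, 2.09 and 0.00267 without DMSO replicate 1). Against DMSO 6 h and 24 h its log2 ratio was 0.68 (adjusted p 0.0497). In the Nutlin table a short SVA_D on chromosome 20, 29638868 to 29639719, was among the 6 most abundant copies and was higher with both drugs. It had 17.7 and 13.9 CPM with DMSO and 23.4 and 25.2 CPM with Nutlin (log2 ratio 0.62 with SE 0.16, adjusted p 0.0305; 0.45 and 0.137 without DMSO replicate 2, and not called by DESeq2, 0.113), and 26.8 and 29.0 CPM against 68.6 and 73.3 CPM at 12 h of 5-FU (log2 ratio 1.35 with SE 0.29, adjusted p 0.0048; 1.29 and 0.0663 without DMSO replicate 1).

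At 12 h of 5-FU 41 of the 261 tested SVA copies were called (15.7%), 35 higher and 6 lower, against 9.68% of all 63602 tested copies, 5.36% higher and 4.33% lower. The 35 were 15 SVA_D, 6 SVA_C, 6 SVA_F, 4 SVA_A, 3 SVA_B and 1 SVA_E copies, and 28 were long. The repeats around them moved the same way in 24 of 35, with a median log2 ratio of 0.47, and around the 6 lower copies in 2. In 13 of the 35 the control libraries held at most 3 counts. Of the 23 SVA copies with at least 10 counts in every library, 15 were called and all 15 were higher, where 29.4% of all such copies were called. Leaving out any of the 4 libraries left 13 to 20 SVA copies called. Against DMSO 6 h and 24 h in place of DMSO 12 h, 61 of the 261 were called, 42 higher and 19 lower, beside 14.7% of all tested copies, 8.87% higher and 5.86% lower.

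An SVA_F on chromosome 9, 15405801 to 15407745, had the smallest p at 12 h. It spans both ends and had 17.4 and 9.99 CPM with DMSO and 66.7 and 67.5 CPM with 5-FU at 12 h (log2 ratio 2.29 with SE 0.33, adjusted p 0.000129). At 24 h it had 12.7 and 17.3 CPM with DMSO and 67.9 and 57.5 CPM with 5-FU (log2 ratio 2.06 with SE 0.30, adjusted p 0.000213), so it stayed high when the subfamily as a whole was not called. Other repeats within reach stayed below 1.2 CPM in all 14 libraries. At 6 h it had 16.9 and 21.4 CPM with DMSO and 34.9 and 18.9 CPM with 5-FU (adjusted p 0.761). With Nutlin it was at 4.79 and 4.46 CPM against 4.70 and 13.3 CPM with DMSO (adjusted p 0.148).

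The full-span SVA_A on chromosome 9, 103154467 to 103156164, was higher both with 5-FU at 12 h and with Nutlin. It had 11.7 and 24.7 CPM with DMSO and 79.6 and 79.4 CPM with 5-FU at 12 h (log2 ratio 2.12 with SE 0.34, adjusted p 0.00038). With Nutlin it had 15.5 and 20.6 CPM against 6.46 and 5.32 CPM with DMSO (log2 ratio 1.61 with SE 0.21, adjusted p 0.000621). The groups were apart in both tables, and both calls held without any 1 library, the log2 ratio at 12 h being 2.76 without DMSO replicate 2. The repeats around it moved the same way, with log2 ratios of 1.01 and 1.49. This copy held 27.4% of the SVA_A counts in the 5-FU table.

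An SVA_D on chromosome 7, 36236045 to 36237518, had 1.88 and 0.476 CPM with DMSO and 20.6 and 12.3 CPM with 5-FU at 12 h (log2 ratio 3.76 with SE 0.54, adjusted p 0.000153). Its untreated libraries, at 22.1 and 15.7 CPM, were as high as those with 5-FU. The log2 ratio was 5.01 without DMSO replicate 1, 3.11 without DMSO replicate 2 and 1.72 (adjusted p 0.00131) against DMSO 6 h and 24 h. With Nutlin it had 4.12 and 3.55 CPM against 1.88 and 1.13 CPM (log2 ratio 1.35 with SE 0.37, adjusted p 0.0399). The Nutlin call was lost by DESeq2 (adjusted p 0.208), without DMSO replicate 2 (0.157) and without Nutlin replicate 1 (0.103).

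The 4 copies lower at 12 h with the smallest p had few counts. An SVA_D on chromosome 10, 105366218 to 105367927, had 7 and 5 counts with DMSO and 0 with 5-FU, at least 2.59-fold lower against a floor of 3 counts a library. An SVA_D on chromosome 5, 43577742 to 43579259, had 10 and 4 counts with DMSO and 0 with 5-FU, at least 3.01-fold lower, but 3 and 2 counts in DMSO 24 h and 22 and 17 in 5-FU 24 h. An SVA_D on chromosome 18, 14009956 to 14011906, had 15 and 24 counts with DMSO and 0 with 5-FU, at least 8.43-fold lower, and no more than 3 counts in any library of the 5-FU table outside DMSO 12 h. An SVA_B on chromosome 4, 119712665 to 119714060, had 14 and 6 counts with DMSO and 1 and 2 with 5-FU (adjusted p 0.0364), and the repeats around it were lower too, at 80.3 and 30.7 CPM. The SVA_D copies on chromosomes 10 and 18 lost their call without any 1 library. With DMSO 6 h and 24 h as the control the copies on chromosomes 5 and 18 were not called (adjusted p 0.133 and 1.0). The copy on chromosome 5 kept it only without DMSO replicate 2 and the SVA_B copy only without DMSO replicate 2, the adjusted p being 0.073 to 0.113 and 0.119 to 0.276 otherwise.

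At 24 h 16 of the 261 copies were called (6.13%), 11 higher and 5 lower, against 4.16% of all tested copies, 2.29% higher and 1.87% lower. The repeats around them moved the same way in 7 of the 11 higher and 4 of the 5 lower copies. A full-span SVA_D on chromosome 17, 17814966 to 17816540, had 0 and 1 counts with DMSO and 35 and 107 counts with 5-FU (adjusted p 0.000183). An SVA_F on chromosome 21, 18663826 to 18665426, had 0 and 20 counts with DMSO and 299 and 201 counts with 5-FU (log2 ratio 4.78 with SE 0.83, adjusted p 0.00118). The call held without any 1 library, but the log2 ratio was 3.84 without DMSO replicate 1, which had 0 counts, and 10.72 without DMSO replicate 2. This copy was also uneven within groups, with 14 and 140 counts in DMSO 6 h. A full-span SVA_D on chromosome 1, 6364454 to 6366296, had 2.12 and 2.78 CPM with DMSO and 24.9 and 55.4 CPM with 5-FU (log2 ratio 4.02 with SE 0.81, adjusted p 0.00474), and lost its call without either DMSO library (adjusted p 0.084 and 0.0636), the log2 ratio being 3.32 without 5-FU replicate 2. Leaving out any of the 4 libraries left 7 to 17 SVA copies called.

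A short SVA_D on chromosome 2, 27017556 to 27018306, was lower with both drugs. It had 96 and 76 counts (22.6 and 16.2 CPM) in DMSO 24 h and 0 in both 5-FU 24 h libraries, at least 27.2-fold lower against the floor of 3 counts (adjusted p 6.08e-07). With Nutlin it had 1.44 and 1.05 CPM against 8.58 and 7.70 CPM with DMSO (log2 ratio -2.67 with SE 0.30, adjusted p 0.000179). The groups were far apart in both tables, and both calls held without any 1 library. Its surroundings were also lower, at 18.9 against 46.9 CPM at 24 h and 10.1 against 18.6 CPM with Nutlin. At 6 h and 12 h of 5-FU it had 5.37 to 9.58 CPM with drug and 5.60 to 12.4 CPM with DMSO and was not called.

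The other copies lower at 24 h by the naming rule were 2 SVA_E and 1 SVA_B. The SVA_E on chromosome 10, 71751830 to 71753613, had 33 and 159 counts with DMSO and 0 and 2 with 5-FU (adjusted p 0.00117), and its untreated libraries had 20 and 23 counts. The SVA_E on chromosome 11, 75120230 to 75121922, had 96 and 75 counts in DMSO 24 h, 9 and 0 with 5-FU (log2 ratio -4.07 with SE 0.87, adjusted p 0.00791) and at most 13 in every other library of that table. Its call was lost without 5-FU replicate 2 (log2 ratio -2.89, adjusted p 0.0611), without DMSO replicate 1 (adjusted p 0.0832) and by DESeq2 (adjusted p 0.12), and the log2 ratio was -9.08 without 5-FU replicate 1. The SVA_B on chromosome 16, 28388030 to 28389477, had 32.2 and 32.0 CPM with DMSO and 15.5 and 17.4 CPM with 5-FU (log2 ratio -0.96 with SE 0.27, adjusted p 0.0418), a call lost when any of the 4 libraries was left out (adjusted p 0.058 to 0.19).

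At 6 h of 5-FU 47 of 261 copies had an unadjusted p under 0.05, a share that was not counted over all tested copies. DESeq2 called 0, and edgeR called 1 of the 261, against 0.104% of all tested copies. It was an SVA_E on chromosome 6, 5037244 to 5039107, with 135 and 37 counts in DMSO 6 h and 0 with 5-FU (adjusted p 0.015), at least 28.6-fold lower. In the other groups of the table it had 0 counts or 1, except 19 in 5-FU 24 h replicate 2, so DMSO 6 h was the group that stood apart. The call was lost without either 5-FU library (adjusted p 0.155 and 0.212) and without DMSO replicate 1 (0.52). The next copy by p, an SVA_F on chromosome 6, 31821055 to 31823156, had 0 and 13 counts with DMSO and 136 and 46 with 5-FU and did not pass (adjusted p 0.184).

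With Nutlin 11 of 78 tested copies were called (14.1%), 8 higher and 3 lower, against 9.57% of all 21328 tested copies, 5.37% higher and 4.21% lower. The 8 were 6 SVA_D, 1 SVA_A and 1 SVA_F copies, of 37 SVA_D, 6 SVA_A and 15 SVA_F copies tested. The repeats around the called copies moved the same way in 5 of the 8 higher and in all 3 lower copies. Leaving out any of the 4 libraries gave 18 to 21 calls. An SVA_D on chromosome 19, 15473170 to 15474827, had 1.64 and 2.15 CPM with DMSO and 6.71 and 5.78 CPM with Nutlin (log2 ratio 1.71 with SE 0.32, adjusted p 0.00642), while the repeats around it were lower, at 20.5 and 11.5 CPM. An SVA_D on chromosome 2, 172722363 to 172724171, had 0 and 4 counts with DMSO and 42 and 29 with Nutlin (adjusted p 0.00451). An SVA_F on chromosome 8, 98841 to 100583, had 0 counts in both DMSO libraries, 17 and 27 with Nutlin (at least 7.47-fold higher, adjusted p 0.00305) and 24 in the untreated sample. In the 5-FU table this copy had 17 and 0 counts in the untreated libraries, 277 and 0 in DMSO 6 h and 221 and 13 in DMSO 24 h, so its libraries were far apart within each of these control groups. Of the lower copies, an SVA_D on chromosome 11, 73839613 to 73841174, had 4.70 and 8.38 CPM with DMSO and 1.53 and 2.36 CPM with Nutlin (log2 ratio -1.78 with SE 0.37, adjusted p 0.0107). With 5-FU at 12 h the same copy was higher, at 29.9 and 34.3 CPM against 9.39 and 3.33 CPM (log2 ratio 2.33 with SE 0.55, adjusted p 0.0101), a call lost without 5-FU replicate 2 (0.0601) and without DMSO replicate 2 (0.136). Its log2 ratio at 12 h was 3.26 without DMSO replicate 1 and 1.40 against DMSO 6 h and 24 h. An SVA_F on chromosome 4, 152175470 to 152177202, had 10 and 19 counts with DMSO and 0 with Nutlin, at least 4.88-fold lower (adjusted p 0.00915).

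Counts of some copies swung between libraries of the same group. Of the 81 SVA copies with at least 50 counts in some library of the 5-FU table, 18 (22.2%) had at most 2 counts in the other library of that group, against 356 of 12433 (2.86%) of all repeat copies. They were 8 of 20 SVA_F, 2 of 9 SVA_E and 8 of 37 SVA_D copies and none of the 4 SVA_A, 5 SVA_B and 6 SVA_C copies with such counts. In the Nutlin table these were 2 of 35 SVA copies (5.71%), both SVA_F, against 1.22% of all. The difference between SVA and other copies was not tested.

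An SVA_F on chromosome 18, 51868805 to 51870963, shows the pattern. Its counts were 122 and 2 in the untreated libraries, 0 and 253 in DMSO 6 h, 162 and 2 in 5-FU 6 h, 71 and 72 in DMSO 12 h, 114 and 7 in 5-FU 12 h, 319 and 351 in DMSO 24 h, and 158 and 37 in 5-FU 24 h. Both libraries had similar counts in DMSO 12 h and DMSO 24 h and not in the other groups. An SVA_F on chromosome 16, 28708507 to 28710833, had 216 and 202 counts in the untreated libraries and 0 and 165 in 5-FU 6 h. The summed SVA_F level did not swing in this way, with 397 and 396 CPM in the untreated libraries and 386 and 386 CPM in 5-FU 6 h. Leaving out all copies of this kind, an alternative added after seeing the data, left SVA_A, SVA_B, SVA_C, SVA_D and SVA_F called at 12 h and moved SVA_F at 24 h to a log2 ratio of 0.53 (adjusted p 0.00869). These copies were left out by their spread within groups of the same libraries, and the test measures changes against that spread. Its adjusted p after this choice is therefore no added support.

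**Figure D5:**
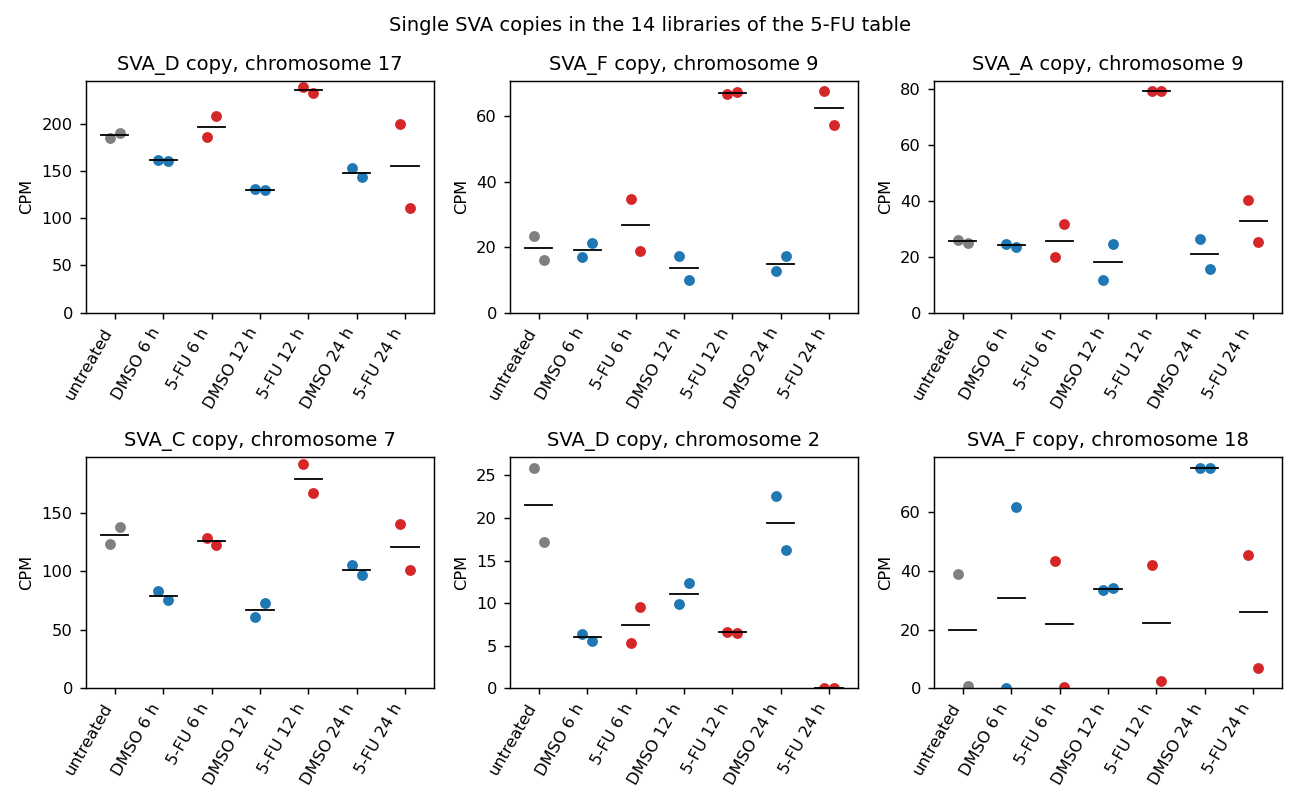
CPM of 6 single copies (vertical axes, from 0) in the 14 libraries of the 5-FU table; points are libraries, bars are group means, and grey, blue and red are untreated, DMSO and 5-FU. The SVA_F copy on chromosome 9 is at 66.7 and 67.5 CPM in 5-FU 12 h, the SVA_D copy on chromosome 2 is at 0 in 5-FU 24 h, and the SVA_F copy on chromosome 18 differs between libraries of the same group.

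Repeats related to SVA were read from a list of 12 names, chosen for shared sequence or shared machinery. LTR5_Hs, LTR5A and LTR5B are the ends of HERV-K proviruses, HERVK-int is their inner part, AluY, AluYa5, AluYb8 and AluYb9 are young Alu elements, and L1HS, L1PA2, L1PA3 and L1PA4 are young LINE-1 elements, of which L1HS supplies the machinery that copies SVA. At 12 h of 5-FU 5 of the 12 were higher and 2 lower, against 16.5% of all names called higher and 19.3% called lower. LTR5A went from 281 ± 1.52 to 422 ± 13.7 CPM (SD, n = 2; log2 ratio 0.59, adjusted p 0.000489), LTR5B was at a log2 ratio of 0.52 (adjusted p 0.00147) and LTR5_Hs at 0.25 (adjusted p 0.0243), which turned to -0.07 (adjusted p 0.64) with the library size alone. AluYb8 was at 0.69 (adjusted p 0.0017) and AluY at 0.47 (adjusted p 0.00196). The lower names were L1PA3 at -0.48 (adjusted p 0.0263) and L1PA4 at -0.56 (adjusted p 0.0159), and L1HS was at -0.25 (adjusted p 0.157). These calls rested on the scale more than those of SVA_A, SVA_C, SVA_D and SVA_F did. With the library size alone AluYb8 was the 1 name of the 5 still called higher, at 0.37 (adjusted p 0.0216), and LTR5A was at 0.27 (adjusted p 0.108), LTR5B at 0.19 (adjusted p 0.286) and AluY at 0.15 (adjusted p 0.22). With TMM factors over all copies neither L1PA3 (-0.23, adjusted p 0.251) nor L1PA4 (-0.31, adjusted p 0.133) was called.

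LTR5_Hs, LTR5B and AluY were also lower in DMSO 12 h than in DMSO 6 h and 24 h, where 6.33% of all names were called lower. The log2 differences were -0.34, -0.43 and -0.26 (adjusted p 0.00574, 0.00418 and 0.0414). With the library size alone they kept that sign but not the call (adjusted p 0.098, 0.0786 and 0.148). LTR5A was not lower (0.14, adjusted p 0.291, and -0.12 with TMM factors over all copies). It alone of the 12 was called at 24 h, at 0.60 (adjusted p 0.000949), against 8.19% of all names. With the library size alone it was at 0.45 (adjusted p 0.064). At 6 h of 5-FU edgeR called 0 of the 12 and 0% of all names, and LTR5A and AluYb8 had an unadjusted p under 0.05. With Nutlin AluYb8 was the 1 name of the 12 called, lower at -0.28 (adjusted p 0.0184), against 11.2% of all names. With TMM factors over all copies it was at -0.25 (adjusted p 0.0728).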

How the data were processed

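Total RNA of IMR90 cells was extracted with RNeasy Plus and sequenced from TruSeq Stranded Total libraries, per the labels' protocols. The authors deposited raw read counts per repeat copy in 2 tables, 1 for 5-FU and 1 for Nutlin. The build hg19 and the tools Trimmomatic 0.32, cutadapt 1.10, Bowtie2, edgeR and DESeq2 are named per the submitters' processing notes, with no role or order. The counting program, the repeat annotation and the treatment of reads that match several copies are not given in the sources used here. Such reads could be shared among near-identical SVA copies, so a value for a single copy is uncertain.

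Counts were used per copy, summed by repeat name, and summed by name and length class (end minus start under 1000 bases, or 1000 or more). Each table had 1 scale, the library size times TMM factors of the copies that passed edgeR's filterByExpr, and 1 fit with a mean for each group. Changes were tested with edgeR's quasi-likelihood test (edgeR 4.0.16, limma 3.58.1, R 4.3.3), Benjamini-Hochberg adjusted over all features of the table, and called at an adjusted p under 0.05. DESeq2 1.42.0 was an alternative. Results at an unadjusted p under 0.05 were read for SVA and the related names only, so no share over all features stands beside them. SDs are over the 2 libraries of a group, except those of CPM per kb, which are over all libraries of a table. Library totals were 2412334 to 6290320 counts for 5-FU with its controls and 9109885 to 11880265 for Nutlin with its controls. One untreated column of the Nutlin table duplicated the other and was left out.

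The text names all 6 SVA names and their length classes, the 6 most abundant copies of each table and, in each drug comparison, up to 4 higher and 4 lower copies with the smallest p among those called, or the 2 smallest p where fewer than 2 passed. Members and lists were chosen with earlier results of these data known. Copies with at least 50 counts in 1 library and at most 2 in the other were singled out after seeing the data, as were the comparisons of 12 h with 6 h and 24 h within DMSO or within 5-FU and the other scalings of the related repeats. Ratios of surrounding repeats used a pseudocount of 0.5 CPM. Bounds on folds use a floor of 3 counts per library and cover counting error only.

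Over all tested copies, deviations of same-numbered libraries correlated little. The correlation ran from -0.102 to 0.137 over 21 pairs of groups in the 5-FU table, and it was -0.00617 in the Nutlin table. The highest value was that of DMSO 24 h with 5-FU 24 h. In these 2 groups each SVA name changed in the same direction from replicate 1 to replicate 2. SVA_F, for example, had 426 and 391 CPM in DMSO 24 h and 515 and 443 CPM in 5-FU 24 h. The fits were tested on simulated counts with 200 changed features. For 5-FU at 12 h, 87% of 2-fold and 99% of 4-fold changes were recovered over 1075 names, and 2% and 24% over 63602 copies. For Nutlin these were 87% and 98% over 1029 names, and 28% and 72% over 21328 copies. Unchanged features made up 3.12% of the calls for 5-FU names and 3.7% for 5-FU copies. For Nutlin they made up 4.64% of the calls for names and 7.41% for copies. The simulated spread depended on abundance alone, with no feature given a spread of its own. Swings within a group such as those of some SVA copies were not simulated, so these shares do not describe such copies. Alternatives covered scaling, filters, thresholds, the length boundary, other controls, left-out copies and libraries, a replicate block and DESeq2.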

Additional observations from a re-analysis of the deposited data

Results flagged for a closer look

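The effect of 5-FU differed between times by the test of the difference itself. From 6 h to 12 h the log2 fold change grew by 1.38 in SVA_A, 0.857 in SVA_C, 0.734 in SVA_D and 0.807 in SVA_F. From 12 h to 24 h the log2 difference was -0.777 in SVA_A, -0.911 in SVA_C, -0.751 in SVA_D and -0.73 in SVA_F. Both sets rest on the same 4 libraries at 12 h, DMSO and 5-FU, and the DMSO 12 h libraries were low in all 6 SVA names. Against 6 h and 24 h together, DMSO 12 h had log2 differences of -0.43 in SVA_A, -0.51 in SVA_C, -0.45 in SVA_D and -0.41 in SVA_F. Within 5-FU, 12 h against 6 h and 24 h gave 0.65, 0.38, 0.295 and 0.36 in the same names. The differences in the effect of 5-FU thus hold a fall of the controls as well as a rise with drug. The part of depth was not tested. Groups of 2 libraries are too small for a test of single libraries that stand apart.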

How the results depend on the processing

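SVA copies called (41 at 12 h, 16 at 24 h, 1 at 6 h and 11 with Nutlin) moved with the threshold, the filters and the libraries used. At an adjusted p under 0.01 they were 14, 9, 0 and 6. With DMSO 6 h and 24 h as the control 61 were called at 12 h. A minimum of 10 counts in each library gave 15, 2 and 0 for 5-FU. With only the 4 libraries compared they were 25, 26 and 4, and with no filter on low counts 30 at 24 h, 17 at 6 h and 19 with Nutlin. DESeq2 called 0 at 6 h and 7 with Nutlin, and the replicate block 2 at 6 h. Leaving out 1 library gave 13 to 20, 7 to 17, 0 to 2 and 18 to 21.

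The log2 ratios of the SVA names at 12 h kept their sign without any 1 library. The number of SVA names called at 12 h (5) fell to 0 without the 10 most abundant copies of each name. At 24 h (1) there were 2 with TMM factors over all copies, 2 with swinging copies left out, and 0 with TMM factors without structural RNA, an adjusted p under 0.01, the library size alone, only the 4 libraries compared, or without the top copy or the 10 most abundant copies, and 0 to 3 without 1 library. At 6 h (0) there was 1 with only the 4 libraries compared and 1 without the top copy. The differences between 6 h and 12 h and between 12 h and 24 h (4 each) fell to 1 with the library size alone and to 0 without the 10 most abundant copies; between 6 h and 24 h (0) there were 0 to 1 without 1 library. DMSO against untreated (1) gave 4 with DESeq2, 4 with TMM factors over all copies, 2 with the library size alone, 0 without the 10 most abundant copies, and 0 to 1 without 1 library. Within 5-FU, 12 h against 6 h and 24 h (4) gave 1 with the library size alone. With Nutlin (0) RLE factors gave 2, TMM factors over all copies 2, TMM factors without structural RNA 1 and the library size alone 2, and leaving out 1 library 0 to 1.

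Length classes at 24 h (1) were 0 with RLE factors, TMM factors without structural RNA, an adjusted p under 0.01, a boundary of 500 bases, the library size alone, no filter or only the 4 libraries, 3 with TMM factors over all copies, 3 with the replicate block, and 0 to 3 without 1 library. At 6 h (0) there was 1 with only the 4 libraries. With Nutlin (1) there were 0 with DESeq2, an adjusted p under 0.01, the 500-base boundary or the replicate block, 2 with the library size alone, and 0 to 1 without 1 library.

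Some log2 fold changes turned sign. Without the 10 most abundant copies these were SVA_A at 12 h (-0.19), SVA_C, SVA_D, SVA_E and SVA_F at 24 h (-0.22, -0.10, 0.036 and -0.076), SVA_C and SVA_D at 6 h (-0.23 and -0.18), the 24 h minus 12 h difference of SVA_A (0.39), and SVA_A, SVA_C, SVA_D and SVA_E with Nutlin (-0.13, -0.13, -0.0014 and 0.060). Without the top copy they were SVA_C at 6 h (-0.16) and SVA_A and SVA_C with Nutlin (-0.10 and -0.031). Against DMSO 6 h and 24 h, SVA_B and SVA_E at 12 h were at -0.079 and -0.72. With the library size alone, SVA_B and SVA_E at 12 h were at -0.0091 and -0.015, SVA_C and SVA_D at 24 h at -0.065 and -0.086, and SVA_C, SVA_D and SVA_F with Nutlin at -0.13, -0.034 and -0.040. DESeq2 put SVA_B at 6 h at 0.056 and SVA_C with Nutlin at -0.020, TMM factors over all copies put SVA_B at 6 h at 0.086, and TMM factors without structural RNA put SVA_B within 5-FU, 12 h against 6 h and 24 h, at 0.0034. Without 1 library, SVA_B ran from -0.074 to 0.044 at 6 h and from -0.26 to 0.0020 with Nutlin, and SVA_C from -0.012 to 0.19 at 24 h and from -0.084 to 0.12 with Nutlin. The cause was not tested. Replicate numbers are not stated to pair the samples, and apart from the counts above the replicate block is among the alternatives that left the counts within 1.5 times. Low counts limit single copies: 261 and 78 SVA copies could be tested.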
